A study of Mus musculus with 6 samples.

Results

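The naive-state ES cell markers are 10 genes whose transcripts mark mouse embryonic stem (ES) cells in the ground state of pluripotency and that do not belong to the core transcription factors. They were chosen by name: Zfp42, Dppa2, Dppa3, Dppa4, Dppa5a, Tdh, Tcl1, Fbxo15, Nr0b1 and Nr5a2. All 10 were among the 24043 gene rows of the table, and all 10 were tested. RNA-seq was done on 3 libraries of wild-type mouse ES cells and 3 libraries of ES cells named Q-KO, described in the labels as lacking every G1 cyclin. The medium of both groups held LIF (leukaemia inhibitory factor) and inhibitors of MEK (PD184352) and of GSK3 (CHIR99021). The sources used here do not give the parental line, the number of clones or the way in which the cyclin genes were removed. Values were FPKM, a measure of fragments scaled by transcript length and library size, and the 3 libraries of a group are given below in order of replicate number.

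Naive ES cells resemble the epiblast of the preimplantation embryo, and blocking MEK and GSK3 while supplying LIF holds them in that state. The G1 cyclins (D-type and E-type) activate kinases that drive cells from G1 into S phase. The markers described here are a mixed group: a zinc finger protein (Zfp42, also called Rex1), genes named for their expression in pluripotent cells and not all of one family (Dppa2, Dppa3, Dppa4 and Dppa5a), a mitochondrial enzyme (Tdh), a coactivator of AKT kinases (Tcl1), an F-box protein (Fbxo15) and a pair of nuclear receptors (Nr0b1 and Nr5a2). In ES cells cultured in serum, Zfp42 and Dppa3 are known to differ from cell to cell. In bulk RNA, fewer cells with a transcript and less of it per cell cannot be told apart.

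The 6 markers used to check the cell type (Pou5f1, Sox2, Nanog, Klf4, Esrrb and Tfcp2l1) summed to 1448 to 1663 FPKM (wild-type) and 1570 to 1863 FPKM (Q-KO). Summed markers of primed epiblast (3), primitive endoderm (5), feeders (7), two-cell-like cells (4) and trophectoderm (5) reached at most 18.1, 2.02, 6.48, 8.06 and 7.09 FPKM in any library, while 5 germ cell markers summed to 27.8 to 186 FPKM (wild-type) and 223 to 402 FPKM (Q-KO). The primed epiblast maximum was that of wild-type replicate 3, and the other libraries reached at most 4.2 FPKM. Trophectoderm markers summed to 1.33 to 1.58 FPKM (wild-type) and 6.17 to 7.09 FPKM (Q-KO). The feeder and two-cell-like maxima were in Q-KO replicate 1, and that of primitive endoderm in wild-type replicate 2. Of the 5 G1 cyclins, 4 were tested and 3 fell, beside 1.02% of all tested genes. Ccne1 averaged 49.1 ± 10.1 FPKM over the wild-type and 75.4 ± 11.1 FPKM over the Q-KO libraries (SD, n = 3 each, as for all means below, limma adjusted p = 0.113). Its RNA was thus not lost, though the label says that every G1 cyclin is lacking. As the way of removal is not given, transcript values cannot show whether a gene was disrupted. Any direction given here is therefore that of libraries with the label Q-KO. Wild-type replicate 3 stood apart: its 7 Y-linked genes summed to 101 FPKM and those of Q-KO libraries to 43.9 to 72.4 FPKM, while all were listed at 0 in the other wild-type libraries. In it, 1.81% of tested genes were at least 2-fold above both other wild-type libraries and 2.09% at least 2-fold below both (on FPKM + 1). The sources used here do not say whether the wild-type libraries come from 1 line, so a wild-type mean or SD may span more than 1. Log2 changes and spreads of the 10 markers that this library moves by over 1.5 times are given without it too. An exact 0 in this table can be a failed estimate: Eef1a1, which every cell uses, was listed at 0 in all 3 wild-type libraries and at 5333 to 5903 FPKM in the Q-KO libraries.

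Of the 10 markers, 0 passed limma's test over all 11573 genes, where 4.06% of genes passed at an adjusted p of 0.05 (3.04% higher and 1.02% lower in Q-KO libraries, so that 74.9% of calls were rises, against 55.6% after median-of-ratios scaling). An unadjusted p under 0.05 was found for 1 of the 10, Tcl1, and for 2493 genes in all. Groups had separate ranges for 1 of the 10, again Tcl1, against 27.7% of all tested genes. Of the 10 markers, 4 had a log2 change above 0 and 6 below 0, with a median of -0.20, beside 6861 genes above 0 and 4712 below 0 and a median of 0.07 over all tested genes. Dppa2, Dppa3, Zfp42 and Nr0b1 spread widely within the wild-type group, the last pair mainly through wild-type replicate 3.

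**Figure D1:**
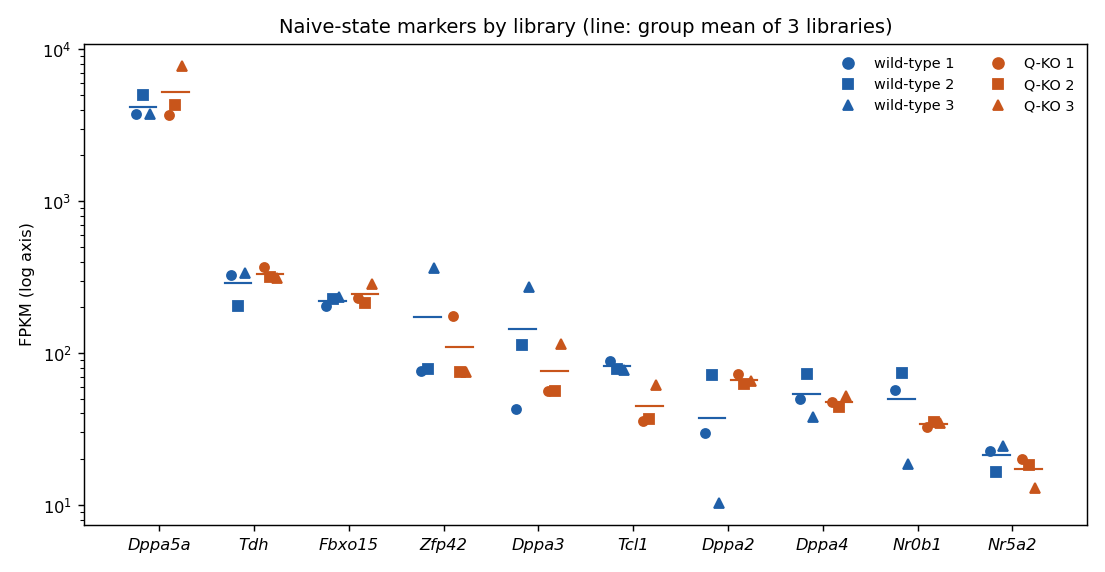
FPKM of each marker (log axis) in the 3 wild-type (blue) and 3 Q-KO (orange) libraries; symbols mark the replicate and horizontal lines the group means. The groups overlap for every marker except Tcl1. Wild-type replicate 3 (blue triangle) lies far from its group for Zfp42 and Nr0b1, while for Dppa3 and Dppa2 all wild-type libraries lie apart.

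Zfp42 encodes a zinc finger protein related to the factor YY1 and is the classical reporter gene of the naive state. It was at 76.6, 78.9 and 363 FPKM in wild-type and at 177, 75.4 and 74.7 FPKM in Q-KO libraries. A pair of libraries was thus high, 1 from each group, and the other four lay within a narrow band. Group means were 173 ± 165 and 109 ± 58.6 FPKM. The log2 change was -0.38 (SE 0.60, 95% interval -1.77 to 1.01, limma adjusted p = 0.758). Without wild-type replicate 3 the log2 change was 0.36 (adjusted p = 0.609).

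The tested genes next to Zfp42 on chromosome 8, in the order of the RefSeq annotation, are Triml2 and then Triml1, which encode proteins of the tripartite motif family. They were looked up after the values of Zfp42 were seen. Triml2 was at 17.5, 21.5 and 120 FPKM in wild-type and at 59.3, 24.2 and 27.5 FPKM in Q-KO libraries. Triml1 was at 13.7, 10.5 and 58.9 FPKM in wild-type and at 28.3, 13.0 and 14.7 FPKM in Q-KO libraries. All of these 3 genes were highest in wild-type replicate 3 and second highest in Q-KO replicate 1. Wild-type replicate 3 exceeded the mean of the others in its group 4.68-fold for Zfp42, 6.17-fold for Triml2 and 4.87-fold for Triml1. Relative to the mean of the other Q-KO libraries, Q-KO replicate 1 was 2.35-fold, 2.29-fold and 2.04-fold higher. The ratio of Triml1 to Zfp42 stayed between 0.133 and 0.197 in the 6 libraries, and that of Triml2 to Zfp42 between 0.228 and 0.367. On the other side lies Fat1, a protocadherin gene. It was at 7.66, 4.55 and 15.9 FPKM in wild-type and 17.4, 13.5 and 5.51 FPKM in Q-KO libraries. Fat1 was highest in Q-KO replicate 1 and next highest in wild-type replicate 3, the same libraries in reverse order. Unlike for Zfp42, Q-KO replicate 2 was close below them.

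Genes of chromosome 8 as a whole were also higher in these libraries, though by far less. The median log2 difference between wild-type replicate 3 and the mean of the other wild-type libraries was 0.25 over 587 tested genes of chromosome 8 and 0.25 over 939 of chromosome 11, and lay between -0.12 and 0.03 on the other autosomes. Between Q-KO replicate 1 and the mean of the other Q-KO libraries it was 0.12 on chromosome 8 and between -0.14 and 0.04 on the other autosomes. The part of the whole-chromosome difference in the values of Zfp42, Triml1 and Triml2 was not tested.

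**Figure D2:**
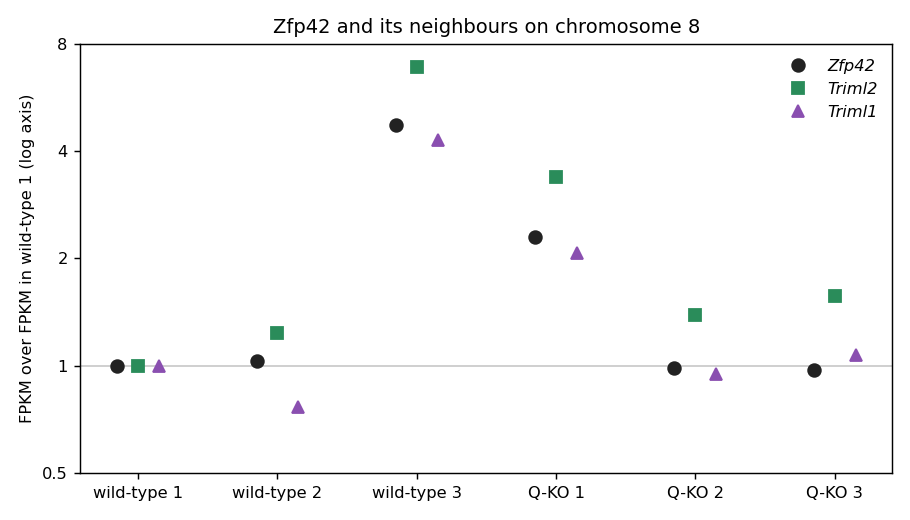
FPKM of Zfp42, Triml2 and Triml1 in each library divided by the gene's FPKM in wild-type replicate 1 (log axis; the grey line marks a ratio of 1). All of these genes peak in wild-type replicate 3, at 4.74, 6.88 and 4.31 times wild-type replicate 1, and are next highest in Q-KO replicate 1, at 2.30, 3.39 and 2.07 times.

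The sequences just before the transcription starts of these neighbouring genes are shown because the genes were high in the same libraries, and that of Tcl1 because it was the marker with separate groups. Each is the 250 bases upstream of a RefSeq start (GRCm38.p6), 5′ to 3′ on the gene's strand; 4 of the 10 markers had an entry, and among the genes shown those are Zfp42 and Tcl1. Zfp42 lies at chr8:43307010-43307259 (minus strand), Triml2 at chr8:43180286-43180535 (plus strand), Triml1 at chr8:43141487-43141736 (minus strand) and Tcl1 at chr12:105222738-105222987 (minus strand). Capitals mark matches to one of 5 motifs, searched on both strands; no window held more than 1 match.
Zfp42: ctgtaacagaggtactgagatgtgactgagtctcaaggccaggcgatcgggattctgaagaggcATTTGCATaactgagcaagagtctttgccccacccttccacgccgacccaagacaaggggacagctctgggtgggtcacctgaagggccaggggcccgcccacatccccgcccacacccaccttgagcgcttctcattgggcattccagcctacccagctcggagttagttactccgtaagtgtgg
Triml2: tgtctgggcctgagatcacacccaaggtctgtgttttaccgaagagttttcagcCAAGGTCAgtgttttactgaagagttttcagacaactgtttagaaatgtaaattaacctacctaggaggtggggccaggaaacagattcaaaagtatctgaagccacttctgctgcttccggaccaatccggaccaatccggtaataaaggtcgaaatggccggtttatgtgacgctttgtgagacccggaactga
Triml1: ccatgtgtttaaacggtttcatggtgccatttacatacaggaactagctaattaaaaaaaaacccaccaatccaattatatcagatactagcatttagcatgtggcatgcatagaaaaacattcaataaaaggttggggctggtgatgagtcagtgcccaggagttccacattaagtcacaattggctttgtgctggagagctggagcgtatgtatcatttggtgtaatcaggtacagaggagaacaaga
Tcl1: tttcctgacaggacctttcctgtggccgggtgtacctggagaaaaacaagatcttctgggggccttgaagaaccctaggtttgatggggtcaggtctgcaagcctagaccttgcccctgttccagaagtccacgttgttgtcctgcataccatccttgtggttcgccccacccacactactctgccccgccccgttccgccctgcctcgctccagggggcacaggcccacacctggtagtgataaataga
The Zfp42 window held the octamer ATGCAAAT, the letters bound by POU factors such as OCT4, as its reverse complement ATTTGCAT, which begins 186 bases before the start. Of 32851 promoter windows of this length, 1.6% held it. The Triml2 window held CAAGGTCA, a motif of orphan nuclear receptors such as ESRRB and NR5A2, found in 1.33% of windows. A SOX motif (CATTGTT, in 3.29% of windows), a KLF motif (GGGCGTGG, in 4.79%) and an E2F motif (GGCGGGAA, in 1.86%) were not in any of these windows, and the Triml1 and Tcl1 windows held none of the 5. These are matches of letters and do not show that a factor binds.

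Dppa3, also called Stella or PGC7, encodes a protein that shields the maternal genome from loss of DNA methylation in the zygote and is also a marker of primordial germ cells. It was at 43.0, 113 and 273 FPKM in wild-type and at 56.5, 55.9 and 114 FPKM in Q-KO libraries. The wild-type libraries spanned 6.36-fold, enclosing all Q-KO values, and wild-type replicate 3 was the highest, as for Zfp42. Group means were 143 ± 118 and 75.6 ± 33.5 FPKM. The log2 change was -0.62 (SE 0.60, 95% interval -2.0 to 0.75, limma adjusted p = 0.587), and it was 0.027 without wild-type replicate 3 (adjusted p = 0.984). Without wild-type replicate 1 it was -1.29 (limma adjusted p = 0.203). The tested genes nearest to it on chromosome 6 did not have its wild-type order: Gdf3, a growth factor gene, was at 56.5, 53.4 and 51.8 FPKM and Nanog at 466, 524 and 392 FPKM. Apobec1, a cytidine deaminase gene just beyond Gdf3, did have it, at lower levels of 4.2, 7.01 and 10.8 FPKM. Values of Dppa3 are uncertain because 2 other annotated genes match at least 50% of its transcript with at least 90% identity.

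Dppa2 and Dppa4 are neighbours on chromosome 16. They encode DNA-binding proteins with a SAP domain that act as a pair and are needed in ES cells for the activation of two-cell stage genes. Dppa2 was at 29.9, 71.5 and 10.3 FPKM in wild-type and at 72.3, 62.5 and 65.9 FPKM in Q-KO libraries. The Q-KO libraries lay close together, near the highest wild-type library, while the wild-type libraries spanned 6.96-fold. Group means were 37.2 ± 31.3 and 66.9 ± 4.96 FPKM. The log2 change was 1.21 (SE 0.56, 95% interval -0.08 to 2.49, limma adjusted p = 0.257), the highest value among the 10 markers, which did not pass. Without wild-type replicate 3 it was 0.52 (adjusted p = 0.402), and without wild-type replicate 2 it was 1.86 (adjusted p = 0.0515).

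Dppa4 was at 49.5, 72.7 and 38.1 FPKM in wild-type and at 47.6, 44.0 and 51.8 FPKM in Q-KO libraries. The wild-type libraries had the same order as for Dppa2 but a narrower span of 1.91-fold, which enclosed the Q-KO values, and a log2 change of -0.11 was found (SE 0.22, 95% interval -0.62 to 0.40, limma adjusted p = 0.811). Without wild-type replicate 3 it was -0.33 (adjusted p = 0.383), and without wild-type replicate 2 it was 0.13 (adjusted p = 0.692). The ratio of Dppa2 to Dppa4 FPKM, chosen after the values were seen and therefore not tested, was 0.604, 0.984 and 0.270 in wild-type libraries and 1.52, 1.42 and 1.27 in Q-KO libraries (means 0.619 ± 0.357 and 1.41 ± 0.125). Dppa2 was thus below Dppa4 in each of the 3 wild-type libraries and above it in each of the 3 Q-KO libraries. Morc1, the next tested gene after Dppa2 and a germline ATPase gene, was at 61.0, 75.8 and 84.6 FPKM in wild-type and 67.8, 66.7 and 89.4 FPKM in Q-KO libraries, an order unlike that of Dppa2. Phldb2, the next tested gene on the side of Dppa4, was at 1.35, 2.26 and 1.28 FPKM in wild-type and 5.75, 4.23 and 2.49 FPKM in Q-KO libraries. It had the wild-type order of Dppa2, and its groups did not overlap, as was so for 27.7% of all tested genes.

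**Figure D3:**
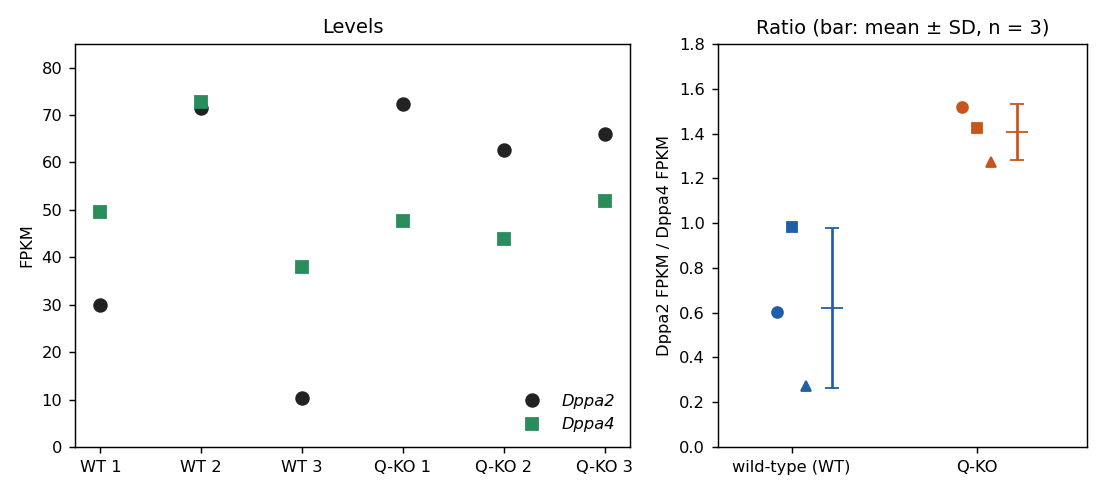
Left, FPKM of Dppa2 and Dppa4 in each library; right, their ratio per library with the mean ± SD of 3 libraries per group. The ratio lies at or below 0.984 in the wild-type libraries and at or above 1.27 in the Q-KO libraries.

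Of the 17 listed two-cell stage genes downstream of this pair, 15 were in the table and 4 were tested, of which 0 passed limma's test (0 had an unadjusted p under 0.05). Zscan4f, one of a cluster of near-identical zinc finger genes whose values are uncertain for that reason, was at 0.517, 4.34 and 0.101 FPKM in wild-type and at 5.60, 2.37 and 1.74 FPKM in Q-KO libraries, with limma's adjusted p at 0.399. Zscan4c was at 0.507, 3.68 and 0.0902 FPKM in wild-type and at 4.49, 2.06 and 1.41 FPKM in Q-KO libraries, with limma's adjusted p at 0.435. The log2 changes were 0.92 and 0.80, or 0.47 and 0.37 without wild-type replicate 3 (adjusted p = 0.675 and 0.723). Both were highest in wild-type replicate 2 and lowest in wild-type replicate 3 among the wild-type libraries, as were Dppa2 and Dppa4. The same wild-type order was found for Nr0b1, Ooep and Stra8, described below. The share of all tested genes with this order is not given here. Wild-type replicate 3 was at an end of the wild-type range for 71.8% of all tested genes. A link between the genes named was not tested.

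Nr0b1 encodes DAX1, an orphan receptor that lacks the usual DNA-binding domain and binds other nuclear receptors, NR5A2 among them. It was at 57.0, 73.6 and 18.6 FPKM in wild-type and at 32.6, 35.3 and 34.7 FPKM in Q-KO libraries. The Q-KO values agreed to within 1.08-fold, and the wild-type values spanned 3.96-fold on both sides of them. Group means were 49.7 ± 28.2 and 34.2 ± 1.40 FPKM, for a log2 change of -0.32 (SE 0.43, 95% interval -1.31 to 0.67, limma adjusted p = 0.716). This value turned on single wild-type libraries. Without wild-type replicate 2 it was 0.063 (adjusted p = 0.948). Without wild-type replicate 3 Nr0b1 was lower in Q-KO libraries, with a log2 change of -0.90 (adjusted p = 0.0181). Nr0b1 is X-linked, and its highest values were in the wild-type libraries whose Y-linked genes were listed at 0. Over 404 tested X-linked genes, the median log2 difference between the mean of these wild-type libraries and the mean of the other libraries was -0.03. Xist was at most 0.0711 FPKM in any library. A link between the values of Nr0b1 and those of the Y-linked genes was not tested. Of the neighbours of Nr0b1, Tab3 (4.96, 5.31 and 5.35 FPKM) was even across the wild-type libraries. Mageb4, on the other side, had the wild-type order of Nr0b1 at far lower values (0.297, 0.969 and 0.147 FPKM) and was at 4.32, 3.96 and 2.19 FPKM in Q-KO libraries.

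Nr5a2 encodes LRH-1, a receptor that binds regulatory regions of Pou5f1 and can replace OCT4 in reprogramming. By group mean it was the least abundant of the 10 markers in both groups, though Dppa2 and Nr0b1 were lower in wild-type replicate 3. Nr5a2 was at 22.5, 16.6 and 24.4 FPKM in wild-type and 20.01, 18.4 and 12.9 FPKM in Q-KO libraries. The ranges overlapped, with a log2 change of -0.30 (SE 0.21, 95% interval -0.77 to 0.18, limma adjusted p = 0.453), and no single library left out brought it past the threshold (adjusted p 0.261 to 0.76). Leaving out wild-type replicate 3 gave -0.19, and without Q-KO replicate 3 it was -0.12. Among 9 related nuclear receptor genes, 6 were tested and 0 passed limma's test (1 had an unadjusted p under 0.05). The most abundant were Esrrb, a naive-state receptor gene, with a log2 change of 0.15 (adjusted p = 0.597), and Nr1h2, the gene of the oxysterol receptor LXR-beta, with -0.47 (adjusted p = 0.0875).

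Tcl1 encodes a small protein that binds AKT kinases and enhances their activity. It was at 89.1, 78.0 and 77.7 FPKM in wild-type and at 35.9, 36.6 and 61.5 FPKM in Q-KO libraries. Every Q-KO library was below every wild-type library, with Q-KO replicate 3 between the wild-type libraries and the other Q-KO libraries. The wild-type group was even, with a highest-to-lowest ratio of 1.15. Group means were 81.6 ± 6.46 and 44.7 ± 14.6 FPKM, 1.83-fold apart. The log2 change was -0.90 (SE 0.21, 95% interval -1.38 to -0.41). This missed the threshold over all genes (limma adjusted p = 0.0596, unadjusted p = 0.00277). It passed after median-of-ratios scaling (-1.03, adjusted p = 0.0433), after quantile normalization (-0.96, adjusted p = 0.0429), in a robust fit (-0.90, adjusted p = 0.045) and without Q-KO replicate 3 (-1.15, adjusted p = 0.0259), and over all alternatives the adjusted p ranged from 0.0259 to 0.253. Without wild-type replicate 3 the log2 change was -0.93 (adjusted p = 0.068).

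The Tcl1b genes beside Tcl1 on chromosome 12 were all below the filter of a mean of 1 FPKM. Tcl1b2, the most abundant of the 5, was at 0.42, 0.611 and 0.564 FPKM in wild-type and 0.123, 0.178 and 0.284 FPKM in Q-KO libraries. Its groups did not overlap either, at these low values (27.7% of all tested genes had separate ranges). Like Tcl1, it was highest among the Q-KO libraries in replicate 3. Glrx5, the nearest tested gene on one side, which encodes a mitochondrial glutaredoxin, was at 30.6, 23.6 and 24.3 FPKM in wild-type and 28.7, 34.5 and 39.95 FPKM in Q-KO libraries, with overlapping ranges and a higher mean in Q-KO. Of the 3 AKT kinase genes, all were tested and 0 passed limma's test (0 had an unadjusted p under 0.05). Akt2 had a log2 change of 0.29 (adjusted p = 0.259) and Akt1 of 0.17 (adjusted p = 0.573). Mtcp1, the 1 tested relative of Tcl1 elsewhere in the genome, had a log2 change of -0.07 (adjusted p = 0.895).

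**Figure D4:**
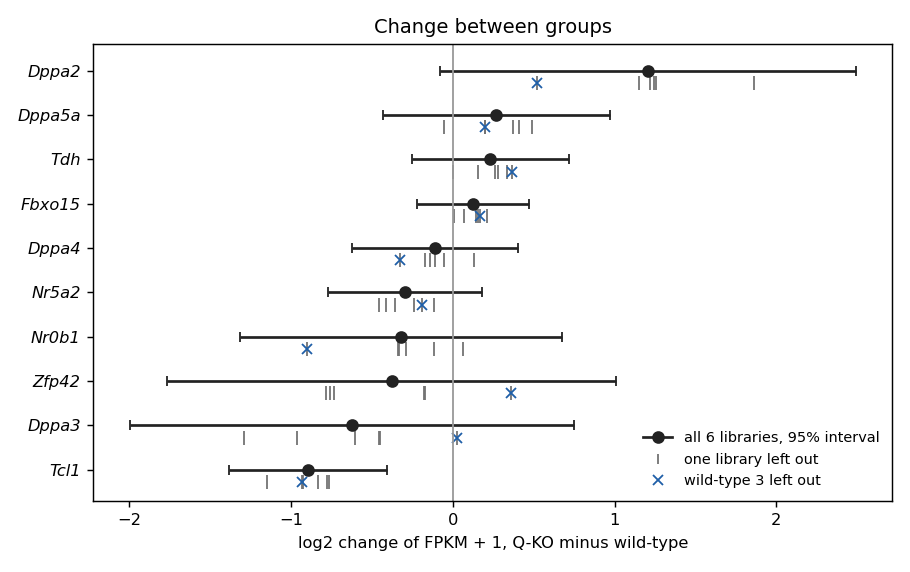
Log2 change of FPKM + 1, Q-KO minus wild-type, for each marker with its 95% interval from limma (circles and bars); grey ticks give the 6 fits that leave out 1 library and blue crosses the fit without wild-type replicate 3. Only the interval of Tcl1 lies wholly to one side of 0. Of all markers, leaving out wild-type replicate 3 moves Zfp42, Dppa3, Dppa2 and Nr0b1 most. Leaving out wild-type replicate 1 moves Dppa3 the other way, to -1.29.

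Dppa5a, also called Esg1, encodes an RNA-binding protein with a KH domain and was by far the most abundant marker. It was at 3738, 5022 and 3748 FPKM in wild-type and at 3676, 4304 and 7781 FPKM in Q-KO libraries. Q-KO replicate 3 stood 1.95-fold above the mean of the other Q-KO libraries, and the rest overlapped. This library also had the highest sum of FPKM over all genes, 641715 against 525134 to 565112 in the others. As a part of that sum, Dppa5a was 1.21% in this library and 0.66% to 0.89% in the others. Means were 4169 ± 738 and 5254 ± 2211 FPKM. The log2 change was 0.27 (SE 0.31, 95% interval -0.44 to 0.97, limma adjusted p = 0.656), which was -0.054 without Q-KO replicate 3 (adjusted p = 0.887). Values of Dppa5a are uncertain because 8 other annotated genes, Pigp among them, match at least 50% of its transcript with at least 90% identity. Ooep, its neighbour on chromosome 9 and another KH domain gene, was at 133, 189 and 76.3 FPKM in wild-type and at 135, 172 and 265 FPKM in Q-KO libraries. Its log2 change was 0.56 (limma adjusted p = 0.396), or 0.21 without wild-type replicate 3 (adjusted p = 0.727), and it was also highest in Q-KO replicate 3. Khdc3, a further gene of this kind, was at 8.72, 6.99 and 42.0 FPKM in wild-type and at 36.5, 16.1 and 28.3 FPKM in Q-KO libraries, with limma's adjusted p at 0.464, or 0.025 without wild-type replicate 3. Of the 9 listed KH domain and oocyte complex genes 5 were tested, and 0 passed limma's test with all libraries (0 had an unadjusted p under 0.05).

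Fbxo15 encodes an F-box protein of an SCF-type ubiquitin ligase and was an early reporter gene for reprogramming. It was at 204, 226 and 235 FPKM in wild-type and at 231, 214 and 285 FPKM in Q-KO libraries. This was the most even marker over the groups together, with a log2 change of 0.13 (SE 0.15, 95% interval -0.22 to 0.47, limma adjusted p = 0.674). Of 3 tested genes of SCF partners, 0 passed limma's test (1 had an unadjusted p under 0.05). Skp1a, the adaptor, had a log2 change of -0.22 (adjusted p = 0.463) and Rbx1, the RING subunit, of 0.27 (adjusted p = 0.342). Cndp2, a peptidase gene next to Fbxo15, was at 108, 70.6 and 56.8 FPKM in wild-type and 145, 191 and 221 FPKM in Q-KO libraries. Unlike Fbxo15, it had groups that did not overlap, as had 27.7% of all tested genes.

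Tdh encodes threonine dehydrogenase, the mitochondrial enzyme on which mouse ES cells rely to turn threonine into glycine and acetyl-CoA. It was at 324, 204 and 339 FPKM in wild-type and at 370, 317 and 310 FPKM in Q-KO libraries. Wild-type replicate 2 was the low library, and all others lay close together, with a log2 change of 0.23 (SE 0.21, 95% interval -0.25 to 0.72, limma adjusted p = 0.565), and without wild-type replicate 2 it was -0.0013 (adjusted p = 0.998). Leaving out wild-type replicate 3 gave 0.36 (adjusted p = 0.404). Values of Tdh are uncertain because 1 other annotated gene matches at least 50% of its transcript with at least 90% identity.

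Among the 10 genes of threonine breakdown, glycine cleavage and folate-bound carbon transfer that work beside Tdh, 1 fell and 0 rose, an unadjusted p under 0.05 was found for 4, 7 had a log2 change below 0, the median was -0.10, and 5 had groups with separate ranges. Of all 11573 tested genes, 1.02% fell, 2493 had an unadjusted p under 0.05, 4712 were below 0 and 27.7% had separate ranges. The one that fell was Gldc, the decarboxylase of the glycine cleavage system, at 58.8, 44.9 and 64.6 FPKM in wild-type and 30.3, 26.8 and 19.2 FPKM in Q-KO libraries. Its log2 change was -1.12 (SE 0.20, limma adjusted p = 0.0263). Its call was lost without wild-type replicate 1 (adjusted p = 0.104), Q-KO replicate 2 (0.128) or Q-KO replicate 3 (0.0791), and with no filter on low values (0.0637). With the replicate number as a block its adjusted p was 0.0513. Gcsh, the hydrogen carrier protein of the same system and the most abundant gene of the list, was at 141, 117 and 108 FPKM in wild-type and 121, 106 and 119 FPKM in Q-KO libraries, with a log2 change of -0.08 (adjusted p = 0.783).

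By level, Dppa5a stood above all other markers in both groups, with ranges that did not overlap with the next. In the wild-type group, Tdh, Fbxo15, Zfp42, Dppa3 and Tcl1 followed in this order of means with no neighbouring pair separate, then Dppa4, Nr0b1, Dppa2 and Nr5a2, again with no neighbouring pair separate; Tcl1 and Dppa4 were separate. In the Q-KO group, where the spread was smaller for 6 of the 10, Tdh, Fbxo15 and Zfp42 were separate from one another, Zfp42 overlapped Dppa3, Dppa3 overlapped Dppa2, Dppa2 was above Dppa4, Dppa4 and Tcl1 overlapped, and Nr0b1 and Nr5a2 followed as separate steps. Dppa2 therefore stood ninth in the wild-type order and sixth in the Q-KO order.

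The spread within the groups was measured as the highest minus the lowest of the 3 libraries on the log2(FPKM + 1) scale. Over the wild-type libraries it was 2.68 for Dppa2, 2.64 for Dppa3, 2.23 for Zfp42 and 1.93 for Nr0b1. These 4 lay at the 99.1, 99.0, 98.5 and 97.8 percentile of all tested genes, of which 9.93% had a wild-type range over 1. Wild-type replicate 3 set much of this for Zfp42 and Nr0b1. Without it, an alternative chosen after seeing the data, the ranges were 1.23 for Dppa2, 1.38 for Dppa3, 0.041 for Zfp42 and 0.36 for Nr0b1, and that of Dppa4 was 0.54 in place of 0.92. Among all tested genes over the same libraries the first 4 lay at the 98.7, 99.1, 10.8 and 73.3 percentile, and 2.07% of genes had a range over 1. With wild-type replicate 1 or 2 left out instead, the 4 ranges lay between 1.26 and 2.68, the lowest being that of Dppa3 without wild-type replicate 1. Tcl1 (0.19) and Fbxo15 (0.20) were at the low end, at the 17.3 and 18.8 percentile. The median over the 10 markers was 0.82 in wild-type and 0.50 in Q-KO libraries, beside 0.39 and 0.34 over all tested genes. The wild-type medians without wild-type replicate 3 were 0.42 over the markers and 0.22 over all tested genes. In the Q-KO group a range over 1 was found for Zfp42 (1.23), Dppa5a (1.08) and Dppa3 (1.02), against 3.51% of all tested genes, while Dppa2 (0.21) and Nr0b1 (0.11) were even. The range was larger in wild-type than in Q-KO libraries for 6 of the 10 markers and for 57.2% of all tested genes. Wild-type replicate 3 was the highest wild-type library for 5 markers and the lowest for 4, so that it was at an end of the range for 9 of 10, as it was for 71.8% of all tested genes. It was at least 2-fold above both others for Zfp42 and Dppa3 and at least 2-fold below both for Dppa2 and Nr0b1. By the same rule, wild-type replicate 1 was below both others for 1 marker, Dppa3. Wild-type replicate 2 was above both others for 1 marker, Dppa2.

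**Figure D5:**
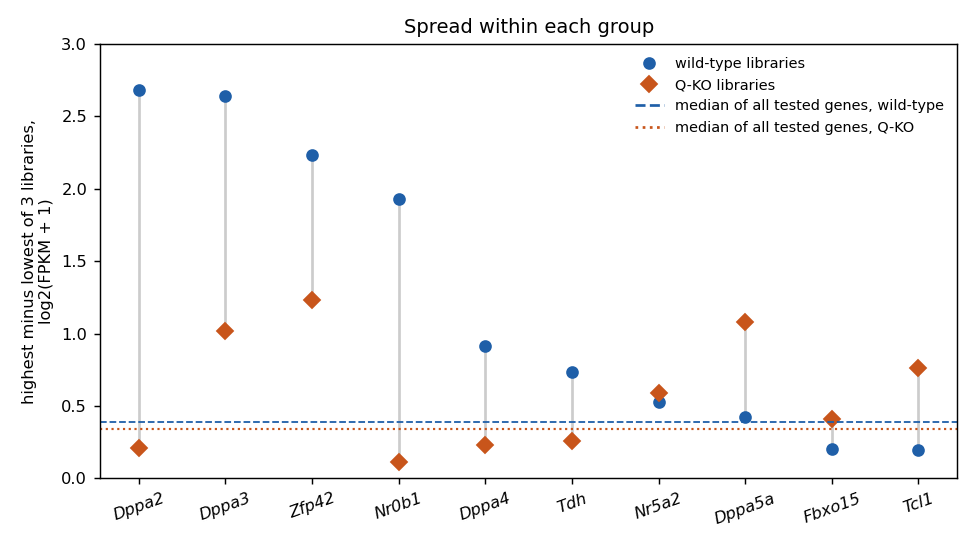
Highest minus lowest of 3 libraries, in log2(FPKM + 1), for each marker in wild-type (circles) and Q-KO (diamonds) libraries; dashed and dotted lines give the median over all tested genes in each group. Dppa2, Dppa3, Zfp42 and Nr0b1 spread by 1.93 to 2.68 among wild-type libraries (0.041 to 1.38 without wild-type replicate 3), and Dppa2 and Nr0b1 by no more than 0.21 among Q-KO libraries.

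Of 14 core and naive transcription factors, all tested, 1 rose and 0 fell, with 11 above 0 and a median log2 change of 0.15. Of all 11573 tested genes 4.06% passed and 2493 had an unadjusted p under 0.05. No share in the pluripotency lists given here is read as differing from these. The one that rose was Tbx3, a T-box factor, at 31.9, 23.0 and 30.4 FPKM in wild-type and 50.05, 52.5 and 45.4 FPKM in Q-KO libraries. Its log2 change was 0.79 (limma adjusted p = 0.0346), a call that held in 1 of the 6 fits with a library left out, that without wild-type replicate 3 (adjusted p 0.0351 to 0.189). It was also lost with no filter on low values (adjusted p = 0.0566), after median-of-ratios scaling (0.0716) and in the fit with a replicate block (0.0694). Pou5f1, the gene of OCT4, had a log2 change of 0.14 (adjusted p = 0.664). Of 18 other ES cell marker genes 0 passed limma's test (3 had an unadjusted p under 0.05; median 0.07). The most abundant were Spp1, which encodes osteopontin, with a log2 change of 0.75 (adjusted p = 0.14), and Tdgf1, which encodes the NODAL co-receptor Cripto, with -0.03 (adjusted p = 0.963). Of 12 tested formative and primed epiblast genes 0 passed (3 had an unadjusted p under 0.05; median 0.10), and the most abundant, the growth factor gene Nodal and the methyltransferase gene Dnmt3b, had log2 changes of 0.43 (adjusted p = 0.227) and 0.34 (adjusted p = 0.603). Of 5 tested genes of DNA methylation linked to Dppa3, 0 passed (0 with an unadjusted p under 0.05; median -0.03). Uhrf1, whose protein Dppa3 binds, and Dnmt1, the maintenance methyltransferase gene, had log2 changes of -0.02 (adjusted p = 0.936) and -0.03 (adjusted p = 0.934). Among 3 tested primitive endoderm genes (0 with an unadjusted p under 0.05) and 2 feeder genes (1) none passed either; Sparc, Lama1, Fbln1 and Thy1 had adjusted p values of 0.666, 0.963, 0.445 and 0.196.

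Dppa3 is also a germ cell gene. Of 12 other listed primordial germ cell and germline genes 11 were tested, 3 rose and 0 fell, beside 3.04% of all tested genes that rose. An unadjusted p under 0.05 was found for 8 (2493 of all 11573 tested genes). Groups had separate ranges for 7 (27.7% of all tested genes), and the median log2 change was 1.02. Those that rose were Tfap2c (0.94, limma adjusted p = 0.0194), Stra8 (4.44, adjusted p = 0.0343) and Nanos3 (1.47, adjusted p = 0.0384), which encode an AP-2 factor of germ cell specification, a protein needed for meiotic entry and an RNA-binding protein that maintains germ cells. Stra8 was at 2.67, 36.9 and 1.70 FPKM in wild-type and at 107, 167 and 210 FPKM in Q-KO libraries, so that wild-type replicate 2 was far above its group and the groups did not overlap. Without Q-KO replicate 2, 0 of these 3 calls passed (adjusted p 0.13 to 0.171), and the same was true without wild-type replicate 1 (0.0631 to 0.124) and without Q-KO replicate 3 (0.0783 to 0.13). Q-KO replicate 1 decided the calls of Stra8 and Nanos3 too (0.087 and 0.104 without it), and Tfap2c missed the threshold with a replicate block (0.0503). With no filter on low values the calls of Stra8 and Nanos3 were lost (0.0954 and 0.0951). That of Stra8 was lost in a robust fit (0.137), and that of Nanos3 without wild-type replicate 2 (0.0753), with a pseudocount of 0.1 (0.0562) and after either rescaling (0.0504 and 0.0534). Of 12 trophectoderm genes, with Tfap2c again among them, 7 were tested and 2 rose, beside 3.04% of all tested genes; the other was Eomes, a T-box factor, from 1.16 ± 0.0845 to 5.64 ± 0.338 FPKM (log2 change 1.62, adjusted p = 0.00398), which passed with each library left out.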

How the data were processed

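The authors deposited 1 table of FPKM values per gene symbol for 3 wild-type and 3 Q-KO libraries. The submitters' processing notes name Cufflinks, STAR 2.5, bcl2fastq 2.16, CASAVA and the build mm9, without role or order. The sources used here give no annotation, strand setting or depth. From the most frequent ratio between low values, wild-type replicate 1 had the lowest depth and the others 1.09 to 1.23 times as much. After 1 stray header row was dropped, log2(FPKM + 1) of 11573 genes, those whose 6 values averaged 1 FPKM or more, was tested with limma 3.58.1 in R 4.3.3 (intensity trend, two-sided, Benjamini-Hochberg over all genes, threshold 0.05). The procedure was also run on simulated data with independent normal noise, in which no library stood apart as wild-type replicate 3 did here. Log2 changes subtract the wild-type from the Q-KO mean of log2(FPKM + 1), which understates changes of low genes. Intervals are at the 95% level. No label says whether cultures were separate, and p-values then measure only the spread between these libraries, which may be technical. Alternatives were another pseudocount (0.1), other filters on low values, median-of-ratios and quantile scaling, no trend, a robust fit, a replicate block, Y-linked transcripts as a covariate, and each library left out. The spread of each marker without each wild-type library was added after seeing the data.

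The members and lists were chosen with earlier results of these data known. All 10 members are named. From each list, genes past the threshold are named (up to 4, by adjusted p), or the most abundant tested members to make 2; for G1 cyclins and Y-linked genes counts and ranges are given, with Ccne1 named as a check of the labels. Neighbours, ratios and other genes were named after their values were seen. Copies were found with megablast among GENCODE M21 transcripts, and upstream sequences were taken from RefSeq (GRCm38.p6). Chromosomes were matched by symbol for 10914 of 11571 tested genes with a unique symbol.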

Additional observations from a re-analysis of the deposited data

How the results depend on the processing

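Of the 10 markers, 0 passed with all libraries. After median-of-ratios scaling, after quantile normalization and in a robust fit 1 did each, a fall of Tcl1. With a term for Y-linked transcripts the count was 3, with 2 values above 0 (Dppa2 and Nr0b1) and 1 below (Zfp42). That fit sets the Q-KO libraries against wild-type replicate 3 alone, assumes that this lone library varies like the others, and picks the genes in which it is extreme, so these are not taken as rises or falls. With a library left out the count was 0 to 1, all falls: Nr0b1 without wild-type replicate 3 and Tcl1 without Q-KO replicate 3. Median-of-ratios scaling moved the median log2 change of all genes from 0.07 to -0.04 and the share of rises among all calls from 74.9% to 55.6% (quantile normalization, 54%).

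Over all genes, 470 passed, 266 with a mean of at least 5 FPKM, 894 with the Y-linked term, 333 with the replicate block, and 28 to 566 with a library left out (94 without wild-type replicate 1, 187, 28 and 85 without Q-KO replicates 1, 2 and 3). The block changed no call among the 10 markers, and Tcl1 had a limma adjusted p of 0.0806 under it. Deviations of same-numbered libraries had r of -0.03 to 0.02. No library correlated best with its own number, and the numbers were not taken to pair the libraries.

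The log2 change turned direction for Dppa4 (0.32), Nr0b1 (0.85), Tdh (-0.033) and Khdc3 (-0.69) with the Y-linked term and for Fbxo15 (-0.0049) after median-of-ratios scaling. With a library left out, those that turned ranged from -0.79 to 0.36 for Zfp42, -1.29 to 0.027 for Dppa3, -0.33 to 0.13 for Dppa4, -0.054 to 0.49 for Dppa5a, -0.0013 to 0.36 for Tdh, -0.90 to 0.063 for Nr0b1, -0.67 to 0.52 for Triml1 and -0.57 to 0.78 for Triml2. The cause was not tested. Directions of Tcl1, Dppa2 and Nr5a2 were the same in all 15 alternatives.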
